A study of Mus musculus with 16 samples.

Results

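The genes described here are 7 major urinary protein (Mup) genes of the mouse, Mup1, Mup2, Mup3, Mup4, Mup5, Mup20 and Mup21. They were taken by symbol from count tables of 23420 genes, which hold 20 rows with a Mup symbol in all, so that 13 further Mup rows are counted and summed beside them. Every mouse was a male C57BL/6 animal, and each of the 8 mice gave a library of adipocytes, freed from subcutaneous fat with collagenase, and a library of liver. The 16 poly-A RNA libraries form 4 groups of 4. The groups are adipocytes from mice with the genotype label adipocyte-specific Trib1 ko (named here by label and number as KO-1137 and KO-1139, taken at postnatal day 76, and KO-1151 and KO-1152, taken at postnatal day 70), adipocytes from mice labelled wild-type (WT-1135, WT-1136 and WT-1138, taken at postnatal day 76, and WT-1153, taken at postnatal day 70), and the livers of the same knockout-labelled and wild-type mice. Values by mouse are given in the order of the numbers within a label. The labels name neither the Cre driver nor the deleted part of Trib1, which encodes the pseudokinase tribbles 1, and the liver is not the tissue that the label gives for the deletion.

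Major urinary proteins are small secreted lipocalins, barrel-shaped proteins that hold volatile ligands. In the mouse they are made mainly in the liver, pass through the blood into the urine and release their ligands slowly, so that urine marks carry information on sex, identity and status. Their hepatic transcription is known to respond to growth hormone pulses through the transcription factor STAT5 and to androgen and glucocorticoid, and it is higher in males. Mup20 encodes darcin, the male pheromone protein to which females are attracted. Mup3 encodes a glycosylated major urinary protein, Mup1 and Mup2 belong to the central group of nearly identical genes, and Mup4 and Mup5 are known mainly from secretory glands of the head.

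All 7 members lie in 1 cluster on chromosome 4, where GENCODE M21 places 22 Mup genes between 59956804 and 62150863 of GRCm38 (the build that GEO's mm10 names), 21 of them on the minus strand. In that order Mup4 starts at 59956804, Mup2 at 60135932, Mup1 at 60498012, Mup5 at 61831319, Mup20 at 62050234, Mup3 at 62083476 and Mup21 at 62147932, each on the minus strand. The coding sequences of the 7 members were 82.4% to 99.4% identical in pairs, with a median of 88.7% over 21 pairs. Mup1 and Mup2 were the closest pair, and Mup3 and Mup21 were 94.7% identical. The share of 50-base stretches of exon that occur in no other Mup gene bears on how well a read can be placed. It is an upper limit, since only these 22 Mup genes were compared, by exact match. The share was 95.3% for Mup20, 87.7% for Mup4, 87.4% for Mup3, 83.9% for Mup5 and 80.9% for Mup21, but 38.4% for Mup1 and 21.8% for Mup2. The rows of Mup1 and Mup2 are therefore uncertain, and the sources used here do not say how reads with several places were counted. The same 60-base stretch of the coding sequence, read 5′ to 3′ from GENCODE transcripts on GRCm38, is given as an example, with capitals at each base unlike Mup1.
Mup1: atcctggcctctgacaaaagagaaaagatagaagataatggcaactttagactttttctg
Mup2: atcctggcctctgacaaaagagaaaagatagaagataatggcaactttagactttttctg
Mup3: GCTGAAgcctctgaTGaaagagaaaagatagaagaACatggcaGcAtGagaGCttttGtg
Mup21: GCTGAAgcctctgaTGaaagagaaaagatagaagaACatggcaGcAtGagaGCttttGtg
Mup20: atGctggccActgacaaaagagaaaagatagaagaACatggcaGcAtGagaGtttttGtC
Mup5: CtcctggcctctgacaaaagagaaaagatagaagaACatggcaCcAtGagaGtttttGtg
Within it Mup2 differed from Mup1 at 0 bases, Mup5 at 8, Mup20 at 10, and Mup3 and Mup21 at 16. Mup3 and Mup21 are the same over this stretch and differ elsewhere, at 94.7% identity over the coding sequence.

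RefSeq promoters (250 bases before and 50 after the start, GRCm38.p6) were given for 4 of the 7 members, Mup2, Mup3, Mup4 and Mup21. Those of Mup3 and Mup21 were 90.2% identical, and those of Mup2 and Mup3 61.6%. The promoters of Mup3 and Mup21, on the minus strand at chr4:62087268-62087567 and chr4:62150792-62151091, are printed because these 2 genes lie side by side and gave the most and the third most counts of the members in liver. Capitals mark the runs of at least 12 bases that all 4 promoters share, 26 bases in all, which lie next to the start.
Mup3: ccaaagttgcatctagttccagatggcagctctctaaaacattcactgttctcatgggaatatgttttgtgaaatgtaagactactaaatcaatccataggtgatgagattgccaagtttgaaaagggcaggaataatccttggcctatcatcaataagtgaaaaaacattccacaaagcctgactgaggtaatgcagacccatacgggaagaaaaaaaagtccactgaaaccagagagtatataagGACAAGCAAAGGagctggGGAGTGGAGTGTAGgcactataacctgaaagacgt
Mup21: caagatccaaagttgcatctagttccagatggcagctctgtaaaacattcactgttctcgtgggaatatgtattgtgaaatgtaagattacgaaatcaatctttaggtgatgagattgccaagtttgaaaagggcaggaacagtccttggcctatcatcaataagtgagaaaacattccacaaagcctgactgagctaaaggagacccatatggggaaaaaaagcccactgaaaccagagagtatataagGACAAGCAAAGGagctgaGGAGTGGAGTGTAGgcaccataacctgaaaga
The letters TTCNNNGAA of the STAT5 motif, on either strand, were in 0 of the 13 Mup promoters given, against 8.3% of all 32851 promoters, the C/EBP letters TTGCNNAA in 0 of 13 against 10.8%, and the TATA letters TATAAA in 2 of 13, 1 of them Mup4, against 13.6%. The search took these exact letters only, so near forms, such as the TATATAAG of the Mup3 and Mup21 promoters above, were not counted.

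Libraries held 28560887 to 53716669 counts, so that a count of 0 in a library allows 3 counts, or 0.0558 to 0.105 counts per 1000000 (CPM), for counting error alone. Trib1 did not separate the labels: it reached 1071 to 1408 CPM in knockout-labelled and 752 to 1293 CPM in wild-type adipocytes (log2 difference 0.28 ± 0.18, SE, 4 mice per label; edgeR adjusted p = 0.241), and 41.7 to 78.8 CPM in knockout-labelled against 51.4 to 72.3 CPM in wild-type livers. A gene total does not check a deletion of unknown extent, and each direction given here is that of the libraries labelled knockout. The tissues matched their labels, with the adipocyte markers summing to 105485 to 124225 CPM in knockout-labelled and 72528 to 108667 CPM in wild-type adipocytes, and the 29 hepatocyte markers to 208373 to 237754 CPM in knockout-labelled and 200942 to 242455 CPM in wild-type livers. The adipocyte library of wild-type mouse WT-1153 stands apart from the other adipocyte libraries, since 18 of the 29 hepatocyte markers were highest there, and results that it moves are also given without it. CPM values are scaled by TMM factors, which adjust library totals for composition, within each tissue. These are bulk samples, in which fewer cells of a type and less RNA per cell cannot be told apart.

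In adipocytes the Mup genes as a group were low but counted, and Mup3 was higher in each knockout-labelled library than in any wild-type one. Mup3 had 75.2, 91.8, 91.1 and 100.5 CPM in adipocytes of the 4 knockout-labelled mice, against 5.15, 5.91, 6.72 and 11.9 CPM in adipocytes of the 4 wild-type mice. The 4 knockout-labelled values lie close together and the wild-type values are spread around a mean of 7.43 ± 3.08 CPM (SD, n = 4), with mouse WT-1153 at the top. The ratio of the group means was 12.1, and the log2 difference was 3.59 ± 0.25 (SE, n = 4 per group; edgeR quasi-likelihood test, adjusted p = 3.52e-05), or 3.92 without wild-type mouse WT-1153 (edgeR adjusted p = 4.16e-06). The values rest on 3279 to 4426 counts of Mup3 in knockout-labelled and 244 to 490 in wild-type libraries.

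**Figure D1:**
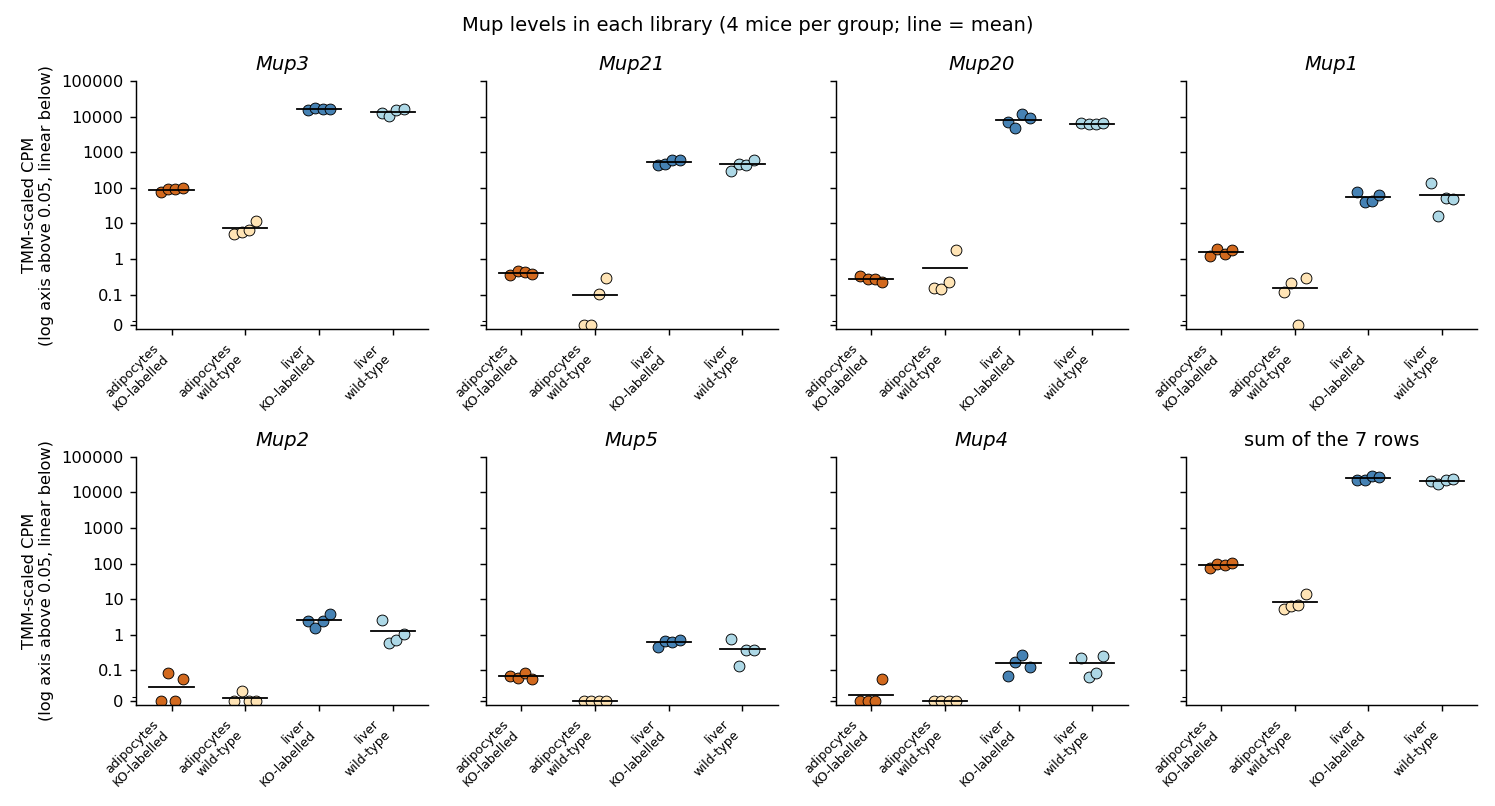
Level of each member and of their sum in each library, as TMM-scaled CPM on an axis that is logarithmic above 0.05 and linear below, by group (points, 4 mice per group; line, group mean). Mup3 sits at 75.2 to 100.5 CPM in knockout-labelled adipocytes, above the 5.15 to 11.9 CPM of wild-type adipocytes, and the liver groups overlap for all 7 members.

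Mup1 showed the same direction at a far lower level. It had 54, 92, 50 and 62 counts in knockout-labelled adipocytes, against 6, 9, 0 and 12 counts in wild-type adipocytes, and no values overlapped. In CPM the means were 1.57 ± 0.324 and 0.157 ± 0.127 (SD, n = 4 each), and the log2 difference was 3.31 ± 0.59 (edgeR adjusted p = 0.00313), or 3.76 without wild-type mouse WT-1153 (edgeR adjusted p = 0.00337). Its row shares most of its sequence with other Mup genes, as shown above by its identity with Mup2.

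Mup21, the neighbour of Mup3 in the cluster and the closest member to it in sequence, did not pass the test in adipocytes. It had 16, 22, 16 and 13 counts in knockout-labelled libraries, against 0, 0, 4 and 12 counts in wild-type ones. In CPM the groups did not overlap, at 0.367 to 0.456 in knockout-labelled and 0 to 0.292 in wild-type adipocytes, with a log2 difference of 2.07 ± 0.84 (edgeR adjusted p = 0.0806). The call rests on wild-type mouse WT-1153: without it the difference was 3.59 (edgeR adjusted p = 0.0127). It also passed with limma-voom (adjusted p = 0.0204) and when the spread was shared over all 16 libraries (edgeR adjusted p = 0.0169).

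Of the 7 members, 3 had enough counts in adipocytes to be tested, 2 rose (Mup3 and Mup1) and 0 fell. The same test called 18.0% of the 13795 genes tested higher, 17.1% lower and 35.2% in either direction, and with library totals alone it called 9.37% higher and 28.3% lower, a median shift of -0.20 on the log2 scale over all genes. The tested members are those with counts in enough libraries, which Mup3 had under both labels and Mup1 and Mup21 through the knockout-labelled group, so this count does not stand for all 7. The direction of Mup1 and Mup21 was thus largely fixed by the filter. The median and the lack of overlap given next carry the same limit. The median log2 difference of the 3 was 3.31, against -0.01 over all genes tested. The labels' values did not overlap for the 3 members tested, each higher in knockout-labelled adipocytes, as for 18.7% of the genes tested.

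The remaining 4 members were at the edge of detection in adipocytes. Darcin's gene Mup20 had 15, 13, 10 and 8 counts in knockout-labelled adipocytes, against 8, 6, 9 and 72 counts in wild-type adipocytes, so that the wild-type sum was set by mouse WT-1153 and the other libraries overlapped. Mup5 had 3, 3, 3 and 2 counts in knockout-labelled libraries and 0 in each wild-type library, all at or under the limit that a count of 0 allows, so no fold is given. Mup2 had 0, 4, 0 and 2 counts in knockout-labelled and 0, 1, 0 and 0 in wild-type adipocytes, a ratio of 6.35 with a 95% interval of 0.255 to 167 from counting error alone. Mup4 was seen in adipocytes only as 2 counts in the library of knockout-labelled mouse KO-1152.

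Summed over the 7 rows, the family had 77.2 to 103 CPM (92.0 ± 10.8, SD, n = 4) in knockout-labelled adipocytes, against 5.42 to 14.3 CPM (8.26 ± 4.07) in wild-type adipocytes. The log2 ratio of these means was 3.48, or 3.88 without wild-type mouse WT-1153, and no values overlapped. Of the 13 further Mup rows, which were examined after the members' values were seen, 8 were tested and 8 rose. Among them Mup10 had 3.78 to 8.02 CPM in knockout-labelled and 0.193 to 0.848 CPM in wild-type adipocytes (log2 difference 3.54 ± 0.46, edgeR adjusted p = 0.000731), and Mup7 had 3.14 to 6.27 against 0.605 to 2.44 CPM (1.69 ± 0.42, edgeR adjusted p = 0.0126). Of the 8, 7 reached the count minimum in all 4 libraries of the knockout-labelled group alone, where they are high, so their common direction was largely fixed by the filter, and Mup7 alone reached it under both labels. Apart from Mup6, these rows are near-identical to other Mup genes, and their separate values are uncertain. Among the Mup genes compared, Mup6 has 98.3% of its 50-base stretches to itself, and it was at 3.80 ± 0.58 (edgeR adjusted p = 0.00159).

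**Figure D2:**
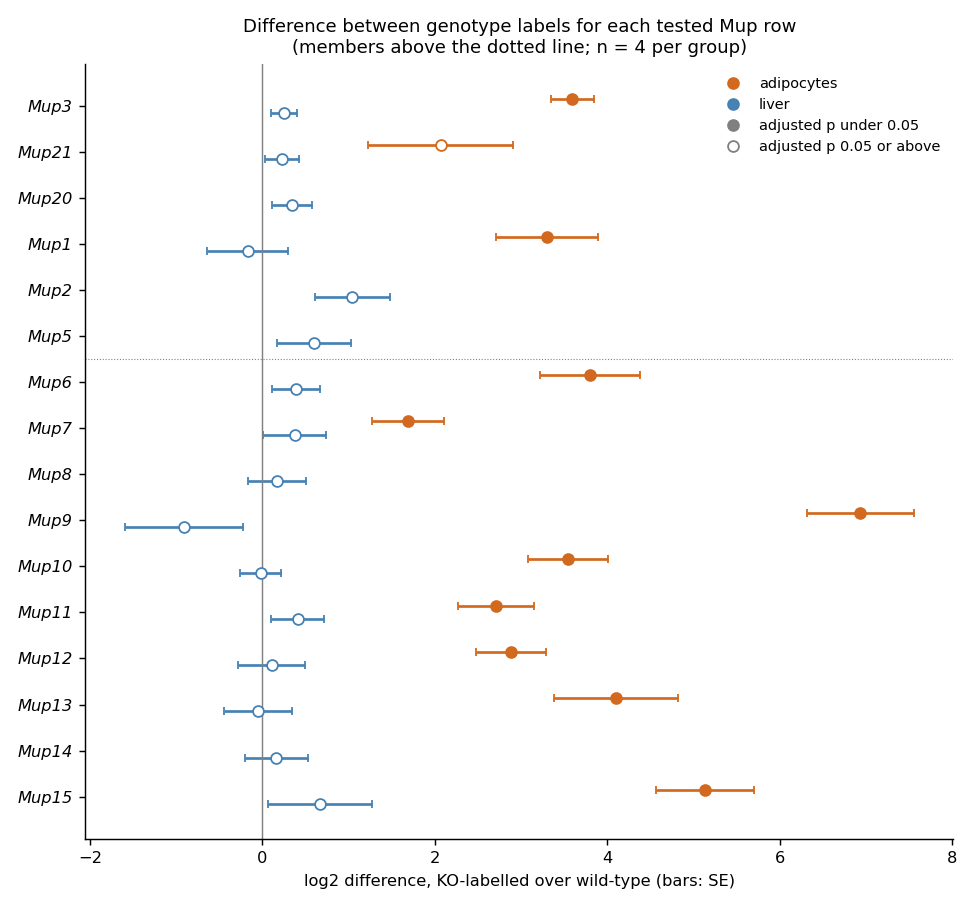
Log2 difference of each tested Mup row, knockout-labelled over wild-type, in adipocytes (orange) and liver (blue), with its SE (bars; n = 4 per group), the members above the dotted line and filled points for an adjusted p under 0.05. In adipocytes Mup3 and Mup1 are filled at 3.59 and 3.31, and in liver no point is filled.

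Other cell types were followed beside this result. Of the 29 hepatocyte markers, 15 were tested in adipocytes, 7 were higher in knockout-labelled libraries and 1 lower, against 18.0% higher and 17.1% lower over all genes tested. Alb, the albumin gene, fell to 22.0 ± 5.23 CPM in knockout-labelled adipocytes, against 81.3 ± 31.2 CPM in wild-type adipocytes (log2 difference -1.88 ± 0.28, edgeR adjusted p = 0.00147), while the fibrinogen gene Fga (2.48 ± 0.46, edgeR adjusted p = 0.00361) and the apolipoprotein gene Apoc3 (1.59 ± 0.29, edgeR adjusted p = 0.00365) rose. The other markers that rose were Serpina3k (2.78 ± 0.54, with 713 to 4107 counts in knockout-labelled and 168 to 348 in wild-type libraries), Hpd, Serpina1a, Hpx and Trf. At the other end, 4 of the 29 had at most 3 counts in each knockout-labelled adipocyte library: the liver enzyme genes Cps1, Tat and Cyp2c29 were at 0 in 3 of the 4 and had 2, 3 and 2 counts in the other, and Ass1 was at 0 in all 8 adipocyte libraries, with a mean of 60.25 counts in liver. The summed level of the 29 ran from 7035 to 9254 CPM in knockout-labelled and from 5476 to 10812 CPM in wild-type adipocytes, most of it from Cyp2e1 and the transferrin gene Trf, which adipocytes also express.

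Set against the mean liver level, the median hepatocyte marker was at 52.7 to 78.0 parts per 1000000 (ppm) in knockout-labelled adipocytes and at 36.3 to 299 ppm in wild-type adipocytes, where mouse WT-1153 gave the highest value. Mup20 was at 31.7 to 47.3 ppm in knockout-labelled and 19.99 to 241 ppm in wild-type adipocytes, below the median marker in 8 of 8 libraries. Mup3 was at 4990 to 6669 ppm in knockout-labelled adipocytes and at 342 to 793 ppm in wild-type ones. In every adipocyte library Mup3 thus stood higher relative to liver than the median hepatocyte marker and than Mup20. Single markers lay on both sides of Mup3. By group means, Cyp2e1 and Trf stood higher relative to liver than Mup3 under both labels. Alb did in wild-type adipocytes, at a mean of 81.3 CPM against 78346 in wild-type livers, where Mup3 had 7.43 against 13750. Apoc3 (1.6 against 1568 CPM), Hpd (1.92 against 2854) and G6pc (0.169 against 260) did there too, G6pc on few counts. In knockout-labelled adipocytes Alb, Apoc3, Hpd and G6pc stood lower than Mup3. By library, Serpina3k stood higher than Mup3 in mouse KO-1137. In single wild-type libraries further markers did, Serpina3k among them. Liver holds both RNAs in a ratio of 0.494 counts of Mup20 to 1 of Mup3 over its 8 libraries. At that ratio the Mup20 counts of an adipocyte library correspond to 0.465% to 0.926% of its Mup3 counts in knockout-labelled mice. In wild-type mice they correspond to 4.98% to 29.7%, highest in mouse WT-1153. These shares rest on 8 to 15 counts of Mup20 in knockout-labelled and 6 to 72 in wild-type libraries. Single livers ran from 27.9 to 72.1 counts of Mup20 per 100 of Mup3. The source of the Mup counts in adipocyte libraries was not tested.

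**Figure D3:**
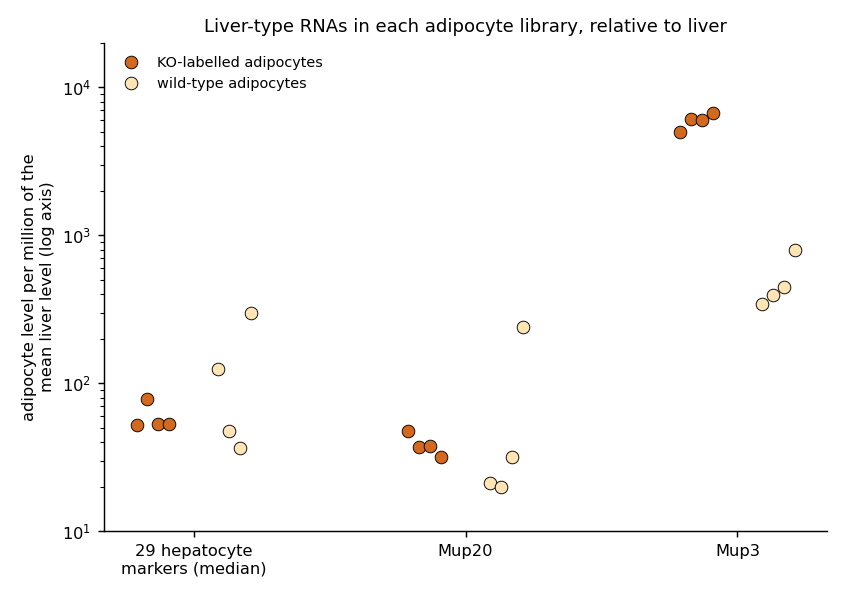
Level in each adipocyte library in parts per 1000000 of the mean liver level (log axis) for the median of 29 hepatocyte markers, for Mup20 and for Mup3, in knockout-labelled (dark) and wild-type (light) adipocytes, 4 mice each. Mup3 lies at 4990 to 6669 in knockout-labelled and 342 to 793 in wild-type libraries, and the light points that stand high for the markers and Mup20, at 299 and 241, are both from mouse WT-1153.

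Markers of endothelial, fibroblast and mural cells moved with the label in adipocytes. Of the 20, all tested, 18 were lower in knockout-labelled libraries and 0 higher, against 17.1% lower and 18.0% higher over all genes tested. Their median log2 difference was -1.59, with summed levels of 580 to 1208 CPM in knockout-labelled against 1496 to 2982 CPM in wild-type adipocytes. The proteoglycan gene Lum fell by 1.47 ± 0.20 on the log2 scale (edgeR adjusted p = 0.000993), and the endothelial genes Emcn and Kdr fell by 1.95 ± 0.32 and 1.88 ± 0.32 (edgeR adjusted p = 0.0023 and 0.00242). Of 18 adipocyte markers 5 rose and 1 fell, and of 13 immune markers 0 rose and 3 fell (Cd4, Cd3g and Ptprc), beside the same shares of all genes. No epithelial marker of 14 had enough counts to be tested. The part of these shifts in the Mup3 difference was not tested. Of the adipocyte markers, the resistin gene Retn was at 1.27 ± 0.14 (edgeR adjusted p = 0.000345) and Pparg, the adipocyte transcription factor gene, at 0.40 ± 0.08 (edgeR adjusted p = 0.0051), and Cidea, a lipid droplet protein gene, fell by 1.03 ± 0.16 (edgeR adjusted p = 0.00185).

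Genes of the growth hormone and androgen pathways that act on Mup genes in liver were present in adipocytes, apart from the hepatic factors. Of 29 listed genes, 21 were tested, 2 were higher and 5 lower in knockout-labelled adipocytes, against 18.0% higher and 17.1% lower over all genes tested. Their median log2 difference was -0.12. The growth hormone receptor gene Ghr reached 3205 ± 433 CPM in knockout-labelled adipocytes, against 1547 ± 339 CPM in wild-type adipocytes (log2 difference 1.05 ± 0.18, edgeR adjusted p = 0.00242). Trim24, a transcriptional coregulator, was lower by a small amount (-0.29 ± 0.06, edgeR adjusted p = 0.00747), and Igfbp3, the gene for a carrier of insulin-like growth factor, was lower too (-1.56 ± 0.39, edgeR adjusted p = 0.0128). With library totals alone 9 of the list were lower and 2 higher, against 28.3% lower and 9.37% higher over all genes.

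Other genes known as male-biased or female-biased in mouse liver gave no single direction in adipocytes. Of 18 male-biased genes 10 were tested, 3 were higher and 1 lower, against 18.0% higher and 17.1% lower over all genes tested. Their median log2 difference was -0.16. The complement gene C6 had 83.4 ± 30.2 CPM in knockout-labelled and 5.68 ± 1.5 CPM in wild-type adipocytes (log2 difference 3.88 ± 0.29, edgeR adjusted p = 4.32e-05), the fatty acid elongase gene Elovl3 had 31.2 ± 14.8 against 1.36 ± 0.807 CPM (4.49 ± 0.46, edgeR adjusted p = 0.000206), and Nudt7, a peroxisomal hydrolase gene, had 106 ± 20.5 against 66.6 ± 7.31 CPM (0.67 ± 0.14, edgeR adjusted p = 0.00558). Of 19 female-biased genes 7 were tested, 5 were higher and 1 lower, beside the same shares of all genes. Among the 5 was the cytochrome P450 gene Cyp2b9, at 6.61 ± 2.168 CPM in knockout-labelled and 0 to 0.0487 CPM in wild-type adipocytes (edgeR adjusted p = 3.51e-05). The others with the smallest p were the thioesterase gene Acot3, at 2.05 ± 0.789 against 0.102 ± 0.0614 CPM (edgeR adjusted p = 0.000293), and Cyp2b13, at 0.65 ± 0.159 CPM against 0 to 0.0387 CPM (edgeR adjusted p = 0.00055). Cyp2b9, Acot3 and Cyp2b13 reached at most 0.155 CPM in wild-type adipocytes, under the count minimum. They were tested through the knockout-labelled group alone, where they are high, so their direction was largely fixed by the filter.

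Lipocalins outside the Mup family also went both ways in adipocytes. Of 16 in the files 8 were tested, 4 rose and 2 fell, against 18.0% higher and 17.1% lower over all genes tested. Lcn2, whose protein binds iron carriers of bacteria, had 7.93 ± 1.14 CPM in knockout-labelled and 2.65 ± 0.543 CPM in wild-type adipocytes (log2 difference 1.58 ± 0.19, edgeR adjusted p = 0.000489), and the orosomucoid gene Orm1 had 523 ± 35.7 against 242 ± 67.7 CPM (1.11 ± 0.19, edgeR adjusted p = 0.0025). Ptgds, the gene for a prostaglandin D synthase, had 0 to 0.0458 CPM in knockout-labelled against 0.292 to 0.466 CPM in wild-type adipocytes (edgeR adjusted p = 0.00228). It was tested through the wild-type group alone, so its direction was largely fixed by the filter.

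In liver Mup3 and Mup20 were abundant, Mup21 and Mup1 less so and Mup2, Mup5 and Mup4 low, and no member passed the test between the genotype labels. Mup3 had 15350, 17043, 16469 and 16644 CPM in livers of the 4 knockout-labelled mice, against 13040, 10604, 15472 and 15884 CPM in livers of the 4 wild-type mice. The groups overlapped, as they did for all 7 members (the values of 4.66% of the genes tested did not), and the log2 difference was 0.25 ± 0.15 (SE, 4 mice per label; edgeR adjusted p = 0.67). Of the 6 members tested, 0 were called by edgeR, DESeq2 or limma-voom, and 1 (Mup2) had an unadjusted p under 0.05 in edgeR. The same edgeR test called 0.0226% of the 13288 genes tested, 3 in all and each higher, with an unadjusted p under 0.05 for 1146.

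The liver estimates for the other members were of either sign. Darcin's gene Mup20 had 6986, 4758, 11878 and 8919 CPM in knockout-labelled livers, against 6732, 6268, 6080 and 6534 CPM in wild-type livers. The knockout-labelled values lie on both sides of the wild-type ones, with a log2 difference of 0.35 ± 0.23 (edgeR adjusted p = 0.701), which was -0.11 with mice of postnatal day 76 only. Mup21 was at 0.23 ± 0.20 (edgeR adjusted p = 0.77) and Mup5 at 0.60 ± 0.43 (edgeR adjusted p = 0.715). Mup2 was at 1.04 ± 0.44 (edgeR adjusted p = 0.55), with 2.45, 1.52, 2.48 and 3.8 CPM in knockout-labelled and 2.62, 0.597, 0.723 and 1.08 CPM in wild-type livers. Mup1 was at -0.17 ± 0.47 (edgeR adjusted p = 0.935), a sign that turned to 0.52 without wild-type mouse WT-1135 and to 0.14 with limma-voom. Mup4, too low to be tested, had 2 to 14 counts in knockout-labelled and 2 to 12 counts in wild-type livers.

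**Figure D4:**
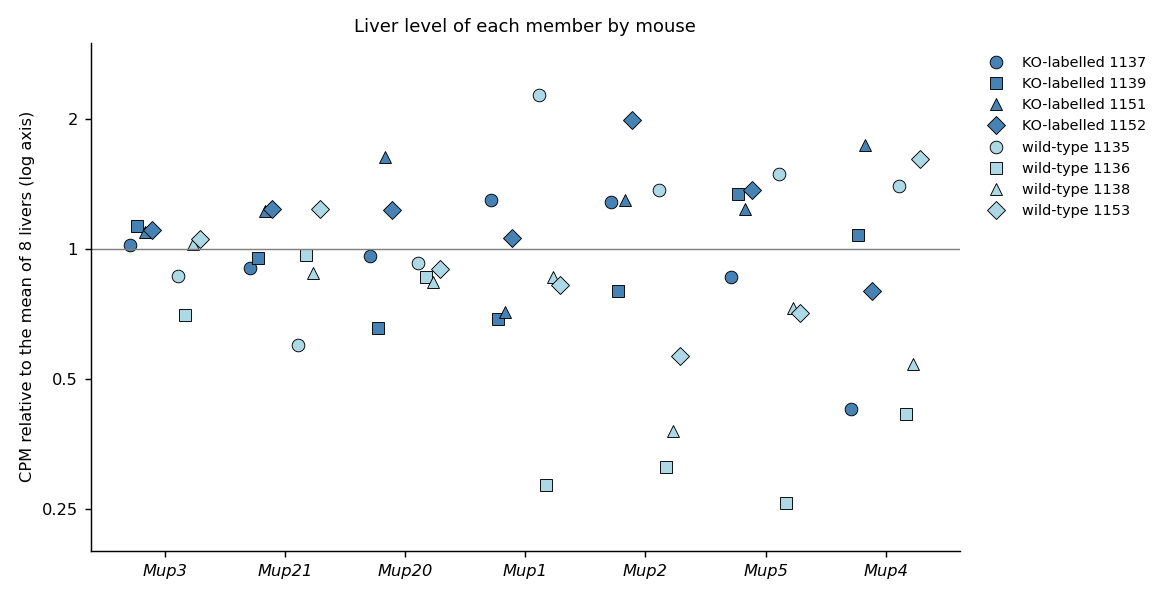
Liver CPM of each member relative to its mean over the 8 livers (log axis), knockout-labelled mice in dark and wild-type mice in light blue, 1 symbol per mouse. Mup3 keeps within 0.704 to 1.13 of its mean, whereas Mup1 runs from 0.284 to 2.27, its extremes being the wild-type mice WT-1136 and WT-1135.

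Livers differed among themselves more in the low members than in Mup3. From the lowest to the highest of the 8 livers Mup3 varied 1.61-fold, Mup21 2.06-fold and Mup20 2.5-fold, against 5.77-fold for Mup5, 6.36-fold for Mup2 and 7.98-fold for Mup1. Wild-type mouse WT-1136 was the lowest of all 8 livers for Mup1, Mup2, Mup3, Mup4 and Mup5, and wild-type mouse WT-1135 was the highest for Mup1 and Mup5. Within the wild-type group the coefficient of variation was 80.1% for Mup1 and 4.49% for Mup20, and within the knockout-labelled group it was 37.1% for Mup20 and 4.43% for Mup3. Mup5 and Mup4 rest on few counts in each liver.

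The 7 members took 2.18% to 2.98% of all counts in knockout-labelled livers and 1.69% to 2.32% in wild-type livers, and all 20 Mup rows up to 3.46%. The member sum was 22320 to 29004 CPM (25109 ± 3124, SD, n = 4) in knockout-labelled and 17371 to 23085 CPM (20676 ± 2504) in wild-type livers, a log2 ratio of 0.28 with overlapping groups. By age, at postnatal day 70 it was 2.6% and 2.98% of the library in the knockout-labelled mice and 2.32% in the wild-type mouse, and at postnatal day 76 it was 2.18% and 2.35% in the knockout-labelled and 1.69% to 2.173% in the wild-type mice. No listed gene of the growth hormone pathway (29 tested), the male-biased set (18 tested), the female-biased set (11 tested) or the other lipocalins (10 tested) passed the test in liver by edgeR, DESeq2 or limma-voom, with 0, 2, 3 and 0 of them at an unadjusted p under 0.05 in edgeR. The 3 pathway genes with the smallest p were Foxa3, a hepatic transcription factor gene, at 0.31 ± 0.15 (edgeR adjusted p = 0.607), Stat5b at -0.20 ± 0.12 (edgeR adjusted p = 0.673) and Ghr at -0.16 ± 0.10 (edgeR adjusted p = 0.684). Those of the male-biased set were the transporter gene Slco1a1, at 0.40 ± 0.11 (edgeR adjusted p = 0.4), Ugt2b38 at 1.12 ± 0.46 and Cyp7b1 at 0.56 ± 0.28. Those of the female-biased set were the cytochrome P450 genes Cyp2c40, at 1.58 ± 0.38 (edgeR adjusted p = 0.342), and Cyp3a44, at -0.62 ± 0.20, with Ntrk2 at -1.29 ± 0.52. Those of the lipocalins were Ptgds at 0.67 ± 0.34 (edgeR adjusted p = 0.623), Orm1 at 0.28 ± 0.14 and Obp2a at -0.80 ± 0.52.

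Between the tissues the members that could be tested were far lower in adipocytes than in liver under both labels. In knockout-labelled mice 6 of 7 members were tested and 6 were lower in adipocytes, against 39.3% of the 14229 genes tested, and in wild-type mice 5 were tested and 5 were lower, against 37.2% of 14366. Of these, 3 in knockout-labelled and 4 in wild-type mice reached the count minimum in all 4 libraries of liver alone, so their direction was largely fixed by the filter, and Mup3 is the member that reached the count minimum in every library of both comparisons. Mup3 was at -8.03 ± 0.20 on the log2 scale in knockout-labelled mice (SE, n = 4 per group; edgeR adjusted p = 7.08e-11) and at -11.40 ± 0.54 in wild-type mice (edgeR adjusted p = 8.62e-09). For Mup20 the differences were -15.32 ± 0.45 in knockout-labelled and -14.01 ± 0.89 in wild-type mice, and for Mup21 -10.87 ± 0.20 in knockout-labelled and -12.75 ± 0.58 in wild-type mice. Without the adipocyte library of mouse WT-1153 the wild-type values were -15.70 for Mup20 and -14.28 for Mup21. Mup1 was at -5.64 ± 0.26 and Mup2 at -6.52 ± 0.61 in knockout-labelled mice, against -9.14 ± 0.81 and -7.59 ± 0.87 in wild-type mice, and Mup5 was at -3.65 ± 0.36 in knockout-labelled mice. With library totals alone the tests called 28.1% and 21.3% of genes lower in knockout-labelled and wild-type mice, and the same 6 and 5 counts of members. Of the further Mup rows, Mup9 was higher in adipocytes than in liver in knockout-labelled mice (log2 difference 1.005 ± 0.30, edgeR adjusted p = 0.0106; 40.4% of genes were called higher) and Mup6 did not pass the test (0.18 ± 0.40, edgeR adjusted p = 0.686), both named after their values were seen.

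A further test, over all 16 libraries, asked whether the genotype difference itself was larger in adipocytes than in liver. The test called it larger for 3 of the 6 members tested, against 10.4% of 14898 genes (19.1% in either direction), or 4.58% with library totals alone, but 1 of the 3, Mup5, rests on adipocyte counts at or under the limit that a count of 0 allows. For Mup3 it was 3.37 ± 0.36 (SE; edgeR adjusted p = 2.01e-05) and for Mup1 3.50 ± 0.92 (edgeR adjusted p = 0.014). Mup5 entered the test through its liver counts, and no size is given because each wild-type adipocyte library is at 0; its adjusted p was 0.0333 with edgeR, 0.0623 with the mouse as a replicate block and 0.0754 with limma-voom. Mup21 was at 1.89 ± 0.69 (edgeR adjusted p = 0.0664), Mup2 at 1.06 ± 1.24 (edgeR adjusted p = 0.589) and Mup20 at -1.31 ± 0.82 (edgeR adjusted p = 0.284). Without the adipocyte library of wild-type mouse WT-1153 the Mup20 value was 0.35 and Mup21 passed at 3.39 (edgeR adjusted p = 0.00641), while Mup5 did not (edgeR adjusted p = 0.0509). With limma-voom Mup3 alone of the members passed.

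The make-up of the family differed between the tissues. Mup3 made up 97.4% ± 0.264 of the member counts in knockout-labelled and 91.9% ± 5.57 in wild-type adipocytes, against 65.9% ± 8.17 in knockout-labelled and 66.1% ± 4.17 in wild-type livers (SD, n = 4 each). Mup20 made up 0.312% ± 0.0943 of them in knockout-labelled and 5.19% ± 4.75 in wild-type adipocytes (2.82% ± 0.496 without mouse WT-1153, n = 3), against 31.7% ± 8.16 and 31.3% ± 4.07 in knockout-labelled and wild-type livers. For each 100 counts of Mup3 there were 0.23 to 0.457 of Mup20 in knockout-labelled and 2.46 to 14.7 in wild-type adipocytes (at most 3.46 without mouse WT-1153), against 27.9 to 72.1 in knockout-labelled and 39.3 to 59.1 in wild-type livers, so the adipocyte and liver values did not overlap. The row of Mup10 went the other way, with 4.63 to 7.98 counts per 100 of Mup3 in knockout-labelled and 3.46 to 14.3 in wild-type adipocytes, against 0.0274 to 0.0489 and 0.0369 to 0.0676 in knockout-labelled and wild-type livers. Mup10 is not a member, was named after its values were seen, and has 23.5% of its 50-base stretches to itself. Mup1, also an uncertain row, made up 1.71% ± 0.236 of member counts in knockout-labelled and 1.91% ± 1.43 in wild-type adipocytes. In knockout-labelled and wild-type livers it made up 0.224% ± 0.082 and 0.298% ± 0.247.

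**Figure D5:**
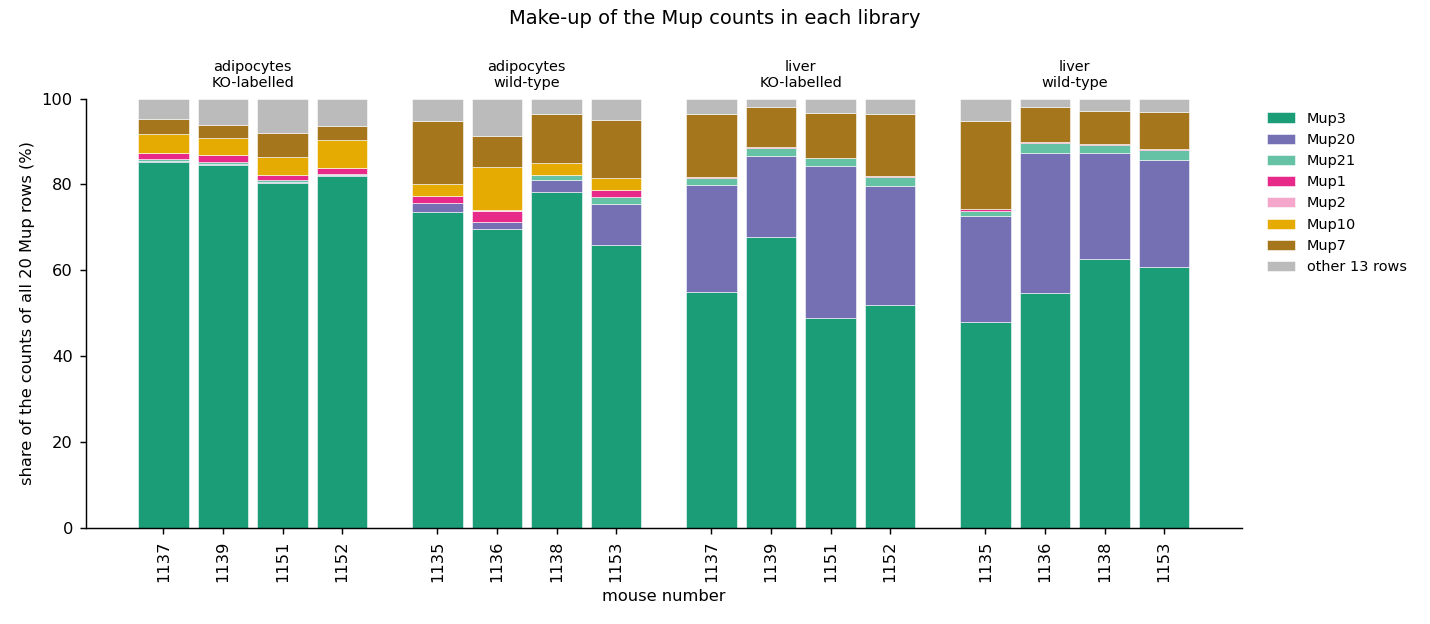
Share of the counts of all 20 Mup rows taken by Mup3, Mup20, Mup21, Mup1, Mup2, Mup10, Mup7 and the remaining 13 rows in each library (stacked bars to 100%, mouse numbers below). Mup20 fills 18.9% to 35.3% of the bars in knockout-labelled livers and 24.6% to 32.4% in wild-type livers, but 0.188% to 0.39% in knockout-labelled and 1.71% to 9.68% in wild-type adipocytes, where the highest is mouse WT-1153.

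Per kilobase of exon the members kept one order in the liver means of both labels, from Mup3 through Mup20, Mup21, Mup1, Mup2 and Mup5 to Mup4. Mup3 was at 15334 ± 679 CPM per kilobase in knockout-labelled and 12875 ± 2288 in wild-type livers, and Mup20 at 8767 ± 3254 and 6900 ± 310 (SD, n = 4 each). Neighbours in this order did not overlap within knockout-labelled livers, whereas in wild-type livers Mup2 (0.447 to 1.96) overlapped Mup5 (0.144 to 0.828) and Mup5 overlapped Mup4 (0.072 to 0.28). In knockout-labelled adipocytes Mup3, at 83.9 ± 9.87 CPM per kilobase, was followed by Mup1 (0.781 to 1.2), Mup21 (0.542 to 0.674) and Mup20 (0.249 to 0.37), whose ranges did not overlap. In wild-type adipocytes Mup3, at 6.96 ± 2.88, was followed by Mup20 (0.616), Mup21 (0.146) and Mup1 (0.0989), whose ranges overlapped each other. That order rests on mouse WT-1153, without which Mup20 was at 0.191, Mup1 at 0.0703 and Mup21 at 0.0509 CPM per kilobase.

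The genes whose pattern was most like that of the family sum were found by the root mean square difference of log2 CPM, each gene centred on its own mean, and are given as a description. Over all 16 libraries the closest of 14747 genes were Saa4 (0.569), Hao1 (0.645), Apoc4 (0.675), Pigr (0.749) and 1300002K09Rik (0.781), against a median of 5.34 over all genes. Over the 8 adipocyte libraries they were Fam5c (0.393), Glra1 (0.4), Tmem56 (0.409), Cyp2j12 (0.425) and Pla2g2e (0.431), against a median of 1.84. Of these, Glra1, a glycine receptor subunit gene, had 9.51 CPM in knockout-labelled and 1.26 CPM in wild-type adipocytes, and Pla2g2e, a secreted phospholipase gene, had 17.3 and 1.41 CPM. Over the 8 liver libraries they were Dab2 (0.0835), Alg12 (0.0871), Mmp2 (0.0873), Hspg2 (0.0898) and Rcor3 (0.0903), against a median of 0.289, in libraries where the family sum itself varied little (0.209 around its mean).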

How the data were processed

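The authors deposited raw counts per gene symbol, 1 library per file and not normalized. The submitters' processing notes list the tools bcl2fastq 2.17, STAR 2.5.2b and featureCounts 1.5.0, and the build mm10. Per the labels' protocols, the RNA integrity number was above 9 for liver RNA and above 6 for adipose RNA. No source used here gives the annotation, the strand setting or the handling of reads with several places. Nothing but the mouse number says that libraries are separate samples.

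The 7 members, the gene lists and the rules for naming genes were chosen with earlier results of these data known. All members are named, with the 3 genes of smallest p per list (in liver for the pathway, sex-biased and lipocalin lists), hepatocyte markers at or near 0 and the 5 genes most like the family sum (prior count 2). Counts were tested with edgeR 4.0.16 in R 4.3.3 (quasi-likelihood test, TMM, filterByExpr, two-sided, Benjamini-Hochberg over all genes tested, threshold 0.05), with DESeq2 1.42.0 and limma 3.58.1 as alternatives. The scripts were tested on simulated data. The SE is the log2 difference over the root of F. Family sums and shares have no test. Counts of 1 to 20 were even in 77.9% of values over all genes and in 51.2% in Mup rows. Count ratios of Mup rows carry exact binomial 95% intervals on halved counts, although these rows showed no such excess of even values. The labels give the adipocyte and liver libraries of a mouse one number, which pairs them; with each group mean taken off, the pairs correlated at -0.0918 to 0.142 (Pearson r, 12320 genes). Genotype groups share no mouse number. Coordinates, exons and coding sequences are from GENCODE M21, promoters from RefSeq.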

Additional observations from a re-analysis of the deposited data

Results flagged for a closer look

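A sample stood far from the other 3 of its group for 3 of the 30 combinations that could be checked. These pair a group with a member or with the member sum, and chance gives about 1 in 20. Mup20 in wild-type adipocytes was at 1.75 CPM in mouse WT-1153 (72 counts), against 0.145 to 0.233 CPM in the other wild-type mice, and 18 of 29 hepatocyte markers were highest in that library too. Their part in the Mup20 value was not tested. Mup4 in knockout-labelled adipocytes was at 0.0577 CPM in mouse KO-1152 (2 counts) and at 0 in the others. Mup2 in wild-type adipocytes was at 0.0242 CPM in mouse WT-1136 (1 count) and at 0 in the others. Both of these lie under the level that a count of 0 allows.

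The genotype effect differed between adipocytes and liver, by the test of that difference, for Mup3 (3.37 on the log2 scale) and Mup1 (3.50). With limma-voom Mup3 passed and Mup1 did not. Mup5 was called too, with a fitted value of 3.70 that is no measured fold, since it had 0 counts in each wild-type adipocyte library and 2 or 3 in the knockout-labelled ones. The adjusted p was 0.0623 when mouse was a replicate block, and limma-voom gave 0.0754, neither of them a call.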

How the results depend on the processing

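Mup3 and Mup1 kept their direction and their call in adipocytes under each alternative run, at 3.41 to 3.82 and 3.11 to 3.89 on the log2 scale, and at 3.43 to 3.92 and 2.92 to 3.76 when 1 library was left out. The number of members called higher in adipocytes was 4 with all 16 libraries in the fit and 2 to 3 when 1 library was left out. For the difference between tissues it was 1 with limma-voom. The cause was not tested. Signs turned for Mup1 in liver (0.14 with limma-voom, -0.48 to 0.52 when 1 library was left out), Mup20 in liver (-0.11 with postnatal day 76 only), and, for the difference between tissues, Mup2 (-0.13 with limma-voom) and Mup20 (-1.66 to 0.35 when 1 library was left out). The log2 ratio of the family sum in adipocytes was 3.32 to 3.88 when 1 library was left out. Between tissues it was -11.29 in wild-type and -8.09 in knockout-labelled mice from the group means in the main run. As 1 edgeR row it was -11.83 in wild-type and -8.61 in knockout-labelled mice. When 1 library was left out it was -11.69 to -11.13 in wild-type mice. The genotype difference of the family sum was larger in adipocytes than in liver by 3.20 in the main run. That value was 3.60 from medians, 3.59 at postnatal day 76 only and 3.04 to 3.60 when 1 library was left out. Over all 20 Mup rows the share of Mup3 was 83.0% in knockout-labelled and 71.8% in wild-type adipocytes, and 55.9% in knockout-labelled and 56.6% in wild-type livers. The mouse as a replicate block gave -8.04 for Mup3 in knockout-labelled and -11.46 in wild-type mice, and 3.42 for the difference between tissues; apart from Mup5 it changed no call. Without a filter Mup5 was called in adipocytes (adjusted p = 0.0322), on 11 counts. Depth limits Mup2, Mup4 and Mup5 in adipocytes.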
